A study of Rattus norvegicus with 9 samples.

Results

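The small heat shock protein genes Hspb1, Hspb8 and Cryab and the co-chaperone gene Bag3 were followed in rat brain after occlusion of the middle cerebral artery, a model of ischemic stroke. They were taken by symbol from a list of 4 names, all 4 were among the 12609 symbols of the table, and all 4 were among the 10180 genes tested. The IR+NMN group had the occlusion and an injection of nicotinamide mononucleotide (NMN, a precursor of NAD) at 100 mg/kg in saline. The IR group had the occlusion and the treatment label PBS, and the Sham group an operation without occlusion and the same label. Strain, sex and age are not stated. Each group had 3 libraries, and the sources used here name no brain region, no time after surgery and no timing of the injection. Whether the 3 libraries of a group are 3 animals is also not stated, and p-values therefore cover the spread among libraries, which may be technical. The 4 genes were chosen by their measured levels in these 3 groups, so their levels and differences are given as a description. Where the number of them past a threshold is given, it describes the fit over all genes and is no independent test of these 4.

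Small heat shock proteins share the alpha-crystallin domain and hold unfolding proteins in solution without using ATP, until other chaperones refold or remove them. Hspb1 (also called Hsp27 or Hsp25) binds actin and intermediate filaments and is known as a protein of reactive astrocytes after brain ischemia. Cryab, or alpha-B-crystallin, is abundant in the lens, in muscle and in glia, where it associates with intermediate filaments. Hspb8 (Hsp22) is held by Bag3, which also binds Hsp70 proteins through its BAG domain, and the complex sends damaged proteins to autophagy. Heat shock factor 1, the regulator of the heat shock response, binds heat shock elements, repeats of GAA and its reverse complement TTC in alternating orientation.

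Promoters of 3 of the 4 genes, Hspb1, Hspb8 and Bag3, were taken from RefSeq (build GRCr8), as the 250 bases before the annotated start. All 3 held the letters GAAGTTTC on the gene's own strand, and so did the promoter of Hspb6, a related gene whose 3 groups overlapped. The stretches below run from 38 bases before to 14 bases after that site, 5′ to 3′ on the gene's strand. Capitals mark the site, which has the form GAANNTTC, 2 units of a heat shock element facing each other. They are shown because the same 8 letters stand in 3 genes whose IR+NMN libraries lay above the Sham libraries and in 1 whose groups overlapped.
Hspb1: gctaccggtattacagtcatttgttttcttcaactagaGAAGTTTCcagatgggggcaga
Hspb8: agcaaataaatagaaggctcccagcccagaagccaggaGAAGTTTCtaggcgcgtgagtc
Bag3: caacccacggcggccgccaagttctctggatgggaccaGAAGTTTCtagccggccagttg
Hspb6: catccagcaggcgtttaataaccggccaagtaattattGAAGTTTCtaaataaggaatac

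The Hspb1 stretch lies at chr12:26432409-26432468 on the minus strand, with the site 129 to 122 bases before the start. The Hspb8 stretch lies at chr12:45837247-45837306 on the plus strand, with the site 23 to 16 bases before a start that is 1409 bases inside the annotated span of the gene. The Bag3 stretch lies at chr1:192533290-192533349 on the plus strand, with the site 132 to 125 bases before the start. The Hspb6 stretch lies at chr1:94934185-94934244 on the plus strand, with the site 149 to 142 bases before the start. Of 33469 promoters of this length, 1.22% held GAAGTTTC on either strand. These letters were picked because the promoters shown share them, so the 1.22% cannot show that the sharing is unusual. The longer letters AGAAGTTTC, also chosen after the sequences were seen, stood in 0.379% of all promoters and in those of Hspb1, Hspb8 and Bag3. The Hspb1 promoter held a second site of the form GAANNTTC, GAACCTTC, 109 to 102 bases before the start, and the Hspb6 promoter a site of the form TTCNNGAA, TTCTAGAA, 239 to 232 bases before the start. The form GAANNTTC stood in 7.23% and TTCNNGAA in 7.48% of all promoters, and either form, which both read the same on both strands, in 13.5%. A site of 3 such alternating units, each 2 bases from the next, contains both shorter forms and stood in 0.663% of promoters on either strand and in none of these 4. A match of letters is a description of the sequence, not a binding site.

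Levels are TPM, a share of the transcripts of a library that is scaled by transcript length and sums to 1000000. Hspb1 had 830.4, 221 and 600.4 TPM in the 3 IR+NMN libraries. It had 50.1, 19.5 and 7.80 TPM in the IR libraries and 3.67, 3.89 and 8.72 TPM in the Sham libraries. The IR+NMN libraries lay above all others, while IR 3 lay below Sham 3, so that IR and Sham overlapped. Group means were 551 ± 308 TPM in IR+NMN, 25.8 ± 21.8 TPM in IR and 5.43 ± 2.85 TPM in Sham (SD, n = 3 each). The mean in IR+NMN was 21.3 times that in IR and 101 times that in Sham. By mean level Hspb1 ranked 247th among the 10180 tested genes in IR+NMN, 4185th in IR and 8301st in Sham.

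Hspb8 had 44.1, 32.8 and 52.1 TPM in IR+NMN, 21.3, 19.6 and 20.4 TPM in IR, and 9.24, 9.51 and 11.5 TPM in Sham. It was the 1 gene of the 4 in which all 3 groups stood apart from each other, in the order IR+NMN, IR, Sham. The means were 43.0 ± 9.71 TPM in IR+NMN, 20.4 ± 0.855 TPM in IR and 10.1 ± 1.25 TPM in Sham (SD, n = 3 each), with the IR libraries close together. The step was of like size in both comparisons, 2.11 times for the mean in IR+NMN over that in IR and 2.02 times for IR over Sham.

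Cryab had 110.4, 149 and 155 TPM in IR+NMN, 140.1, 90.0 and 82.7 TPM in IR, and 54.3, 47.2 and 30.9 TPM in Sham. All 6 libraries with the occlusion lay above all 3 Sham libraries. IR+NMN and IR overlapped, because IR 1 lay above IR+NMN 1, and their means were 138 ± 24.4 TPM in IR+NMN and 104 ± 31.3 TPM in IR, against 44.1 ± 12 TPM in Sham (SD, n = 3 each). Cryab was the most abundant of the 4 genes in IR and Sham, and Hspb1 was the most abundant in IR+NMN.

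Bag3 was the least abundant of the 4 genes in IR+NMN and IR, with 11.7, 15.3 and 15.4 TPM in IR+NMN, 13.3, 7.14 and 7.07 TPM in IR, and 8.37, 6.68 and 5.39 TPM in Sham. The IR+NMN libraries lay above the Sham libraries. IR overlapped both other groups: IR 1 lay with IR+NMN, and IR 2 and IR 3 with Sham. The means were 14.1 ± 2.09 TPM in IR+NMN, 9.18 ± 3.60 TPM in IR and 6.81 ± 1.49 TPM in Sham (SD, n = 3 each).

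**Figure D1:**
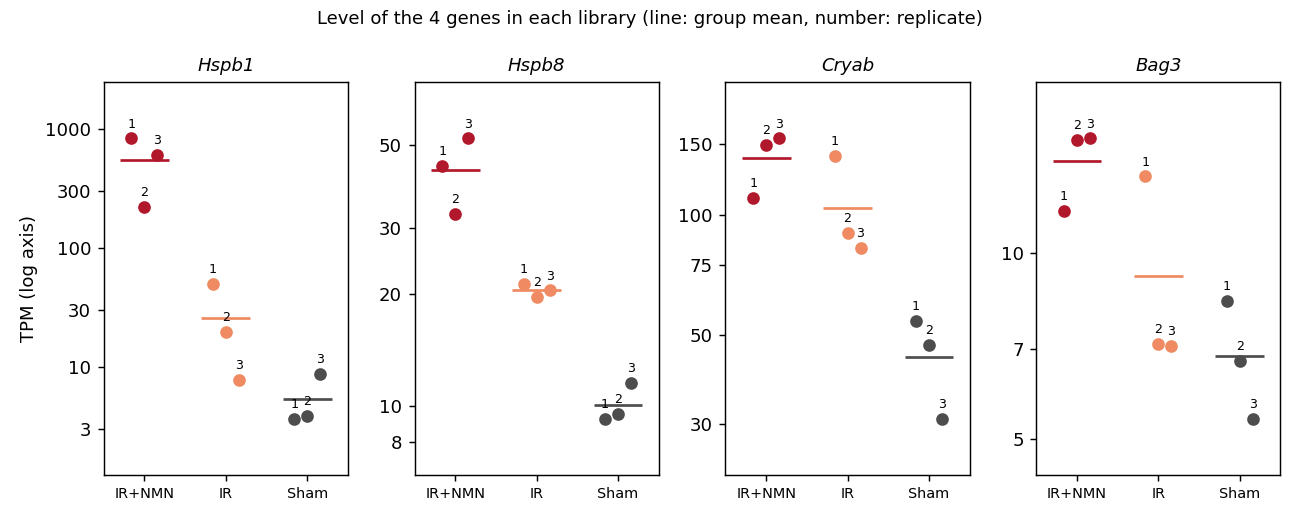
Level of Hspb1, Hspb8, Cryab and Bag3 in TPM on a log axis, 1 point per library with its replicate number, by group, with a line at the group mean (n = 3 each). Hspb8 separates all 3 groups, Hspb1 is between 221 and 830.4 TPM in IR+NMN and at most 50.1 TPM elsewhere, and IR 1 lies with the IR+NMN libraries in Cryab and Bag3.

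Over all tested genes IR 1, IR+NMN 2 and, less so, Sham 3 stood apart from their groups. On the first principal component, with 42.7% of the variance, both IR 1 and IR+NMN 2 lay towards the Sham libraries. Sham 3 lay at 0.219 on it, against 0.440 and 0.464 for Sham 1 and Sham 2. IR 1 had the highest Hspb1, Hspb8, Cryab and Bag3 of its group. IR+NMN 2 had the lowest Hspb1 and Hspb8 of its group, and not the lowest Cryab or Bag3. The fitted values without IR 1 and IR+NMN 2, with Sham 3 kept, are given beside each comparison.

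The make-up of the small heat shock protein pool differed between the groups. The 8 small heat shock protein genes in the table, Hspb1, Hspb3, Hspb6, Hspb7, Hspb8, Cryaa, Cryab and Odf1, summed to 431 to 1003 TPM in IR+NMN, 126 to 238 TPM in IR and 70.0 to 94.5 TPM in Sham. Hspb1 made up 51.2% to 82.8% of that sum in IR+NMN, 6.17% to 21.0% in IR and 3.89% to 12.5% in Sham. Cryab made up 11% to 34.6% in IR+NMN, 58.8% to 65.4% in IR and 44.2% to 57.8% in Sham. Hspb6 held 1.63% to 5.38% in IR+NMN, 10.7% to 11.8% in IR and 24.9% to 26.1% in Sham. The ratio of Hspb1 to Cryab was 1.48 to 7.52 in IR+NMN, 0.0943 to 0.357 in IR and 0.0677 to 0.282 in Sham. The ratio of Hspb8 to its partner Bag3 was 2.14 to 3.76 in IR+NMN, 1.59 to 2.88 in IR and 1.10 to 2.14 in Sham, with overlap between each pair of neighbouring groups.

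**Figure D2:**
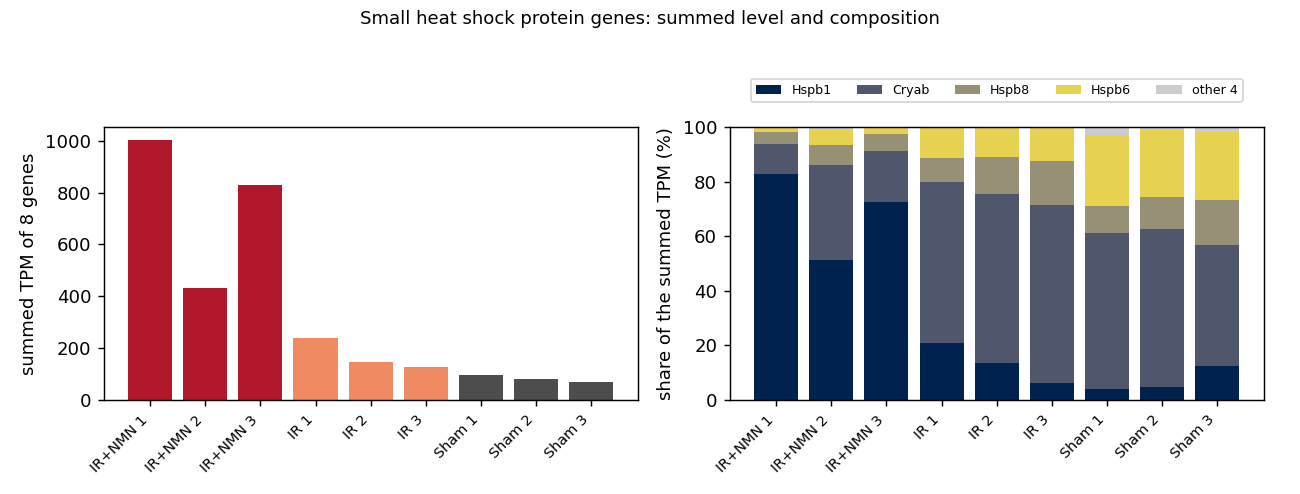
Left, summed TPM of 8 small heat shock protein genes in each library; right, the share in percent of Hspb1, Cryab, Hspb8, Hspb6 and the other 4 genes. Hspb1 takes at least 51.2% of the sum in each IR+NMN library and at most 21.0% in the other libraries, where Cryab is the leading gene.

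The table gives several rows for some symbols and no transcript names, so rows of a gene were also looked at singly. Hspb1 had 1 row. Hspb8 had 2, of which the first held 98.0% of its TPM. Bag3 had 2 rows of similar size. The larger was at 8.29 ± 0.944 TPM in IR+NMN, 5.11 ± 1.89 TPM in IR and 2.66 ± 0.412 TPM in Sham, and the other at 5.85 ± 1.17, 4.07 ± 1.71 and 4.16 ± 1.09 TPM in the same order (SD, n = 3 each). The difference between the groups was thus mainly in 1 of the 2 Bag3 rows.

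Cryab had 7 rows, 2 of which repeated each other's values and 3 of which were at or below 0.330 TPM in every library. Its first row was at 78.9, 85.2 and 9.62 TPM in IR+NMN, 51.5, 10.9 and 39.6 TPM in IR, and 21.5, 0.00403 and 5.90 TPM in Sham. Row 3 was at 0.344, 17.1 and 108 TPM in IR+NMN, 49.1, 39.3 and 0.881 TPM in IR, and 1.55, 23.6 and 0.00117 TPM in Sham. The first row was above row 3 in IR+NMN 1, IR+NMN 2, IR 1, IR 3, Sham 1 and Sham 3, and below it in IR+NMN 3, IR 2 and Sham 2, so that the order of these rows did not follow the groups. The second row was steady within groups, at 33.2 ± 7.59 TPM in IR+NMN, 35.8 ± 0.720 TPM in IR and 20.6 ± 2.61 TPM in Sham (SD, n = 3 each). In it IR+NMN and IR did not differ by more than their spread.

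**Figure D3:**
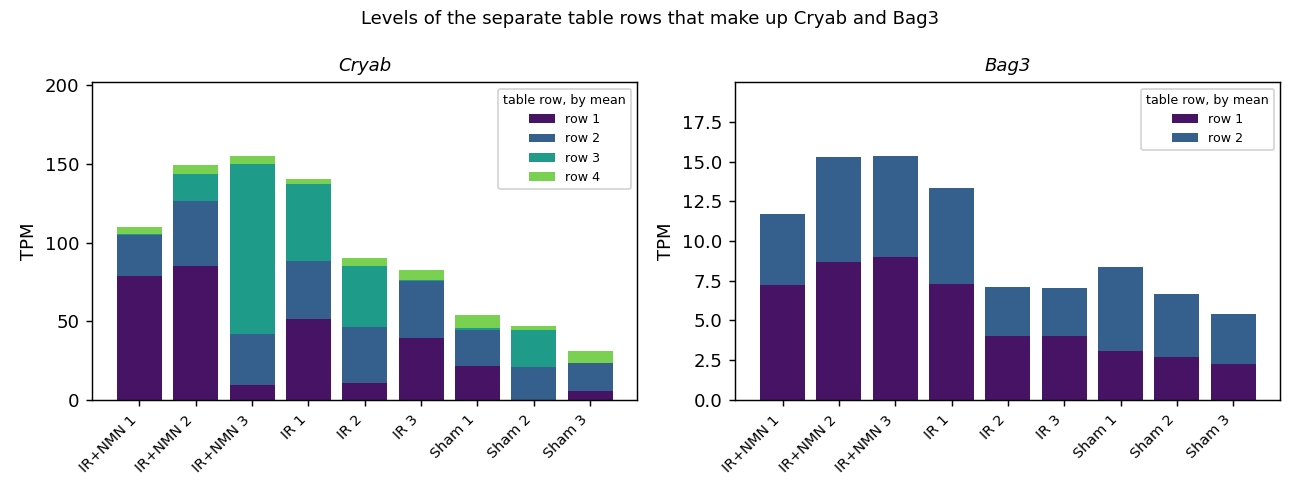
TPM of the 4 largest table rows of Cryab (left) and of the 2 rows of Bag3 (right), stacked by library. Rows 1 and 3 of Cryab trade places between libraries of the same group, and in Bag3 the first row is larger in the IR+NMN libraries than in the Sham libraries.

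IR was set against Sham to ask what the occlusion did. Fitted differences are on the scale of log2(TPM + 1), with their standard error (SE), from a linear model over all 9 libraries (limma). A gene passed the threshold at an adjusted p under 0.05. For Hspb1 the difference was 1.79 (SE 0.67), for Hspb8 0.95 (SE 0.17), for Cryab 1.22 (SE 0.26) and for Bag3 0.35 (SE 0.25), while the median of all tested genes was -0.21. Hspb8 and Cryab, 2 of the 4, were past the threshold as higher, where 1.14% of all tested genes were. Their libraries were also the ones that did not overlap, where IR lay wholly above Sham in 7.58% of all tested genes. Since the genes were chosen with these values known, their counts are not evidence about them.
Without IR 1 and IR+NMN 2 the differences were 1.15 for Hspb1, 0.93 for Hspb8, 0.99 for Cryab and 0.07 for Bag3. The value for Bag3 thus rested on IR 1. Neither Hspb8 nor Cryab passed without Sham 2, IR 2 or IR 3, and 1 of them passed without Sham 1, Sham 3 or IR+NMN 3.

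The effect of NMN after the occlusion was asked by setting IR+NMN beside IR. The differences were 4.52 (SE 0.67) for Hspb1, 1.01 (SE 0.17) for Hspb8, 0.43 (SE 0.26) for Cryab and 0.62 (SE 0.25) for Bag3, against a median of 0.04 over all tested genes. Hspb1 had the 5th largest positive difference of the 10180 tested genes. Hspb1 and Hspb8 were past the threshold as higher, as were 2.3% of all tested genes, and IR+NMN lay wholly above IR in these 2 genes and in 13.7% of all tested genes. Without IR 1 and IR+NMN 2 the differences were 5.72 for Hspb1, 1.22 for Hspb8, 0.60 for Cryab and 0.83 for Bag3.
These calls depended on the libraries in the fit. With IR 2 or IR 3 left out, limma called 0 of the 10180 genes, although 1015 and 932 had an unadjusted p under 0.05. With IR+NMN 1 or IR+NMN 3 left out it also called 0, although 1333 and 934 had one. With the Sham libraries left out of the fit, it called 2 genes in all and neither Hspb1 nor Hspb8, while 1177 genes had an unadjusted p under 0.05.

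IR+NMN was also set against Sham. It shares the Sham libraries with the first comparison and the IR+NMN libraries with the second, so it is no separate evidence. The differences were 6.31 (SE 0.67) for Hspb1, 1.97 (SE 0.17) for Hspb8, 1.65 (SE 0.26) for Cryab and 0.96 (SE 0.25) for Bag3, with a median of all tested genes of -0.14. Without IR 1 and IR+NMN 2 they were 6.87 for Hspb1, 2.15 for Hspb8, 1.59 for Cryab and 0.90 for Bag3. All 4 were past the threshold as higher, as were 4.21% of all tested genes, and all 4 had IR+NMN wholly above Sham, as did 13% of all tested genes. All 4 passed without IR 1, and 3 of them without any other single library.

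**Figure D4:**
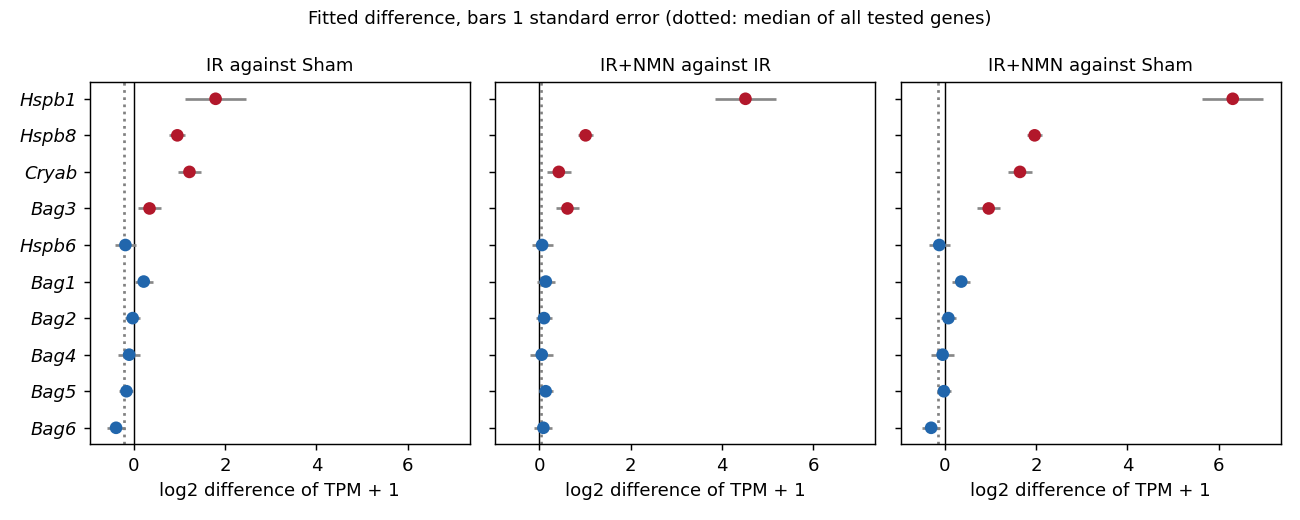
Fitted difference of log2(TPM + 1) with bars of 1 standard error for the 4 genes (red) and for Hspb6 and 5 other BAG genes (blue) in the 3 comparisons, with a dotted line at the median of all tested genes. Hspb1 has the largest value shown in each panel, 1.79, 4.52 and 6.31, and the 6 related genes lie between -0.39 and 0.36.

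Of the other small heat shock proteins on the list, Hspb6, which Bag3 also binds, passed the filter on low values. It had 16.3, 23.2 and 17.9 TPM in IR+NMN, 25.5, 15.5 and 15.0 TPM in IR, and 24.7, 20.5 and 17.4 TPM in Sham. All 3 groups overlapped, and limma gave differences of 0.06 (SE 0.23) between IR+NMN and IR, -0.12 (SE 0.23) between IR+NMN and Sham and -0.18 (SE 0.23) between IR and Sham, none past the threshold. The interval of 95% for IR+NMN versus IR ran from -0.45 to 0.58, below the estimates for Hspb1 and Hspb8. Cryaa, the lens partner of Cryab, was listed at 0 in all 3 IR libraries and reached 4.31 TPM in IR+NMN 2. The muscle gene Hspb7, Hspb3 and the sperm tail gene Odf1 reached no more than 1.07 TPM in any library. Hspb2 and Hspb9 were not analysed here.

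The 5 other genes of the BAG family were all tested, and limma called 0 of 5 in each comparison, with 0 of 5 at an unadjusted p under 0.05. Bag1, which links Hsp70 to the proteasome, had 84.1, 52.7 and 56.5 TPM in IR+NMN, 45.3, 64.1 and 63.6 TPM in IR, and 50.7, 45.5 and 50.6 TPM in Sham. It exceeded Bag3 in every library, and its difference was 0.36 (SE 0.20) between IR+NMN and Sham. Bag6, a chaperone for membrane proteins, averaged 49.8 ± 10.7 TPM in IR+NMN, 46.7 ± 9.49 TPM in IR and 61.0 ± 8.06 TPM in Sham (SD, n = 3 each), a difference of -0.39 (SE 0.20) for IR versus Sham. Bag2, Bag4 and Bag5 differed by -0.16 to 0.14 in the 3 comparisons.

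Of 13 tested partners of Bag3 and genes of its autophagy route, limma called 0 in each comparison. At an unadjusted p under 0.05 there were 3 for IR versus Sham, 1 for IR+NMN versus IR and 4 for IR+NMN versus Sham, against 2884, 1359 and 3040 of all 10180 genes, so these counts do not set the list apart. Groups did not overlap, in either direction, in 3, 1 and 6 of the 13. Hdac6 lay below Sham in both comparisons with Sham, and Stub1 in IR+NMN versus Sham. Of all tested genes 7.58%, 13.7% and 13% lay wholly above in the 3 comparisons. The share lying below is not given, so these counts are no result about the list. Flna, a filamin that crosslinks actin, had 13.1, 18.7 and 22.7 TPM in IR+NMN, 10.6, 6.46 and 4.20 TPM in IR, and 6.54, 7.46 and 11.4 TPM in Sham, with IR+NMN above both other groups (1.29, SE 0.32, limma adjusted p = 0.0830 versus IR). The stress-inducible Hsp70 gene Hspa1b and the autophagosome gene Map1lc3b had both occlusion groups above Sham, with differences of 0.83 (SE 0.30) and 0.35 (SE 0.13) between IR and Sham. Flna, Hspa1b, Map1lc3b, Hdac6 and Stub1 were named after their values were seen, and none of them passed. By mean level the leading genes of the list were Hspa8, Ywhag and Sqstm1. The main Hsp70 of unstressed cells, Hspa8, was at 2091 ± 83.0 TPM in IR+NMN, 2008 ± 216 TPM in IR and 1858 ± 55.1 TPM in Sham (SD, n = 3 each). The autophagy receptor Sqstm1 was at 525 ± 67.0 TPM in IR+NMN, 526 ± 47.4 TPM in IR and 550 ± 34.4 TPM in Sham. Ywhag, a 14-3-3 protein that Bag3 binds, was at 655 ± 73.2 TPM in IR+NMN, 746 ± 246 TPM in IR and 820 ± 92.0 TPM in Sham. The medians of the list were -0.04 between IR and Sham, -0.01 between IR+NMN and IR, and -0.01 between IR+NMN and Sham. With scalings that removed the shift of all genes, between 1 and 3 of these genes were called as higher versus Sham. More of all 10180 genes were then called as higher too. With quantile normalization and median-of-ratios scaling these were 290 and 276 in IR versus Sham, against 116 in the main fit. In IR+NMN versus Sham they were 717 and 686, against 429. Synpo2, Flnc and Ubqln2 were not analysed here.

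Other chaperones passed in the comparisons with Sham. Of 16 tested heat shock factors and chaperones, 7 rose and 0 fell in IR versus Sham, 0 passed in IR+NMN versus IR, with 1 at an unadjusted p under 0.05, and 8 rose and 0 fell in IR+NMN versus Sham. Over all tested genes 1.14% rose in IR versus Sham and 4.21% in IR+NMN versus Sham. In IR+NMN versus IR, 1359 of 10180 had an unadjusted p under 0.05. The median difference of the list was 0.43 between IR and Sham, -0.03 between IR+NMN and IR and 0.33 between IR+NMN and Sham. Cacybp, a protein that binds a ubiquitin ligase component, was at 107 ± 17.9 TPM in IR+NMN, 111 ± 3.14 TPM in IR and 63.2 ± 1.36 TPM in Sham (SD, n = 3 each). It rose by 0.80 (SE 0.12) in IR versus Sham (limma adjusted p = 0.0133) and by 0.74 (SE 0.12) in IR+NMN versus Sham (limma adjusted p = 0.00979). The mitochondrial chaperonin Hspd1 was at 211 ± 25.0 TPM in IR+NMN, 164 ± 16.7 TPM in IR and 116 ± 5.52 TPM in Sham, and rose in IR+NMN versus Sham (0.85, SE 0.13, limma adjusted p = 0.00597). With the highest table row in place of the sum the difference of Hspd1 was -0.57, so its direction depended on which row was read. With that choice the list had 6 genes higher and 1 lower in each comparison with Sham, and Dnaja1 no longer passed in IR versus Sham (limma adjusted p = 0.122) or in IR+NMN versus Sham (limma adjusted p = 0.158). Hspe1, the co-chaperonin of Hspd1, rose by 0.93 (SE 0.22, limma adjusted p = 0.0436) in IR versus Sham and by 1.07 (SE 0.22, limma adjusted p = 0.0194) in IR+NMN versus Sham. The first of these calls was lost in 8 of 19 alternatives (limma adjusted p up to 0.172) and the second in 4.

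The co-chaperones Stip1 and Fkbp4, which bind Hsp90, rose by 0.48 (SE 0.10, limma adjusted p = 0.0291) and 0.58 (SE 0.12, limma adjusted p = 0.0298) in IR versus Sham, and by 0.43 (SE 0.10) and 0.57 (SE 0.12) in IR+NMN versus Sham. Hsp90aa1, Dnaja1 and Ahsa1 also rose in both comparisons with Sham, and differed by -0.18 (SE 0.12), -0.16 (SE 0.11) and -0.03 (SE 0.11) between IR+NMN and IR. Of these calls in the 2 comparisons with Sham, those of Hsp90aa1 held without any single library, while limma called from 1 to 8 of the 16 genes in IR versus Sham and from 3 to 8 in IR+NMN versus Sham when 1 library was left out. In IR versus Sham the call was lost in 7 of 19 alternatives for Stip1, 6 for Fkbp4, 5 for Ahsa1, 4 for Cacybp and 2 for Dnaja1. In IR+NMN versus Sham it was lost in 8 for Stip1, 6 for Fkbp4, 6 for Ahsa1, 2 for Dnaja1 and 0 for Cacybp. The regulator gene Hsf1 itself was at 24.5 ± 3.75 TPM in IR+NMN, 24.5 ± 3.49 TPM in IR and 25.8 ± 2.93 TPM in Sham. The other factor Hsf2 was at 23.3 ± 3.38 TPM in IR+NMN, 23.8 ± 0.708 TPM in IR and 26.1 ± 1.11 TPM in Sham, and neither gene passed. Of the 14 genes of this list with a RefSeq promoter, 7 held GAANNTTC or TTCNNGAA, against 13.5% of all promoters. Hspd1, Hspe1 and Hsph1 held a 3-unit site, for example TTCTGGAAAGTTC 36 to 24 bases before the start of Hsph1. The 3-unit sites of Hspd1 and Hspe1 were reverse complements of each other, so they may be the same stretch of DNA counted for both genes. Hspd1 and Hspe1 may thus not be separate cases in the count of 7, and its difference from 13.5% was not tested. Hsf4 and Chordc1 were not analysed here.

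Intermediate filament genes, whose proteins Hspb1 and Cryab bind, were the list in which genes other than the 4 passed between IR+NMN and IR. Of 9 tested, 1 rose and 0 fell in that comparison, 0 passed in IR versus Sham, with 3 at an unadjusted p under 0.05, and 3 rose and 0 fell in IR+NMN versus Sham. Over all tested genes 2.3% rose in IR+NMN versus IR and 4.21% in IR+NMN versus Sham. In IR versus Sham 2884 of 10180 had an unadjusted p under 0.05, so the 3 of 9 do not set the list apart. Vim, or vimentin, had 132, 79.2 and 113 TPM in IR+NMN, 31.1, 18.3 and 15.0 TPM in IR, and 27.9, 25.1 and 65.2 TPM in Sham. It rose in IR+NMN versus IR (2.32, SE 0.39, limma adjusted p = 0.0252) and versus Sham (1.54, SE 0.39, limma adjusted p = 0.0406). Leaving out any of IR 2, IR 3, IR+NMN 1 and IR+NMN 3 ended both calls (limma adjusted p up to 0.131 versus IR), and leaving out Sham 1 or Sham 2 ended the second (limma adjusted p up to 0.148).
Gfap, the filament of astrocytes, had 4121, 4634 and 4315 TPM in IR+NMN, 2645, 1336 and 666 TPM in IR, and 801, 498 and 394 TPM in Sham. It rose in IR+NMN versus Sham (3.01, SE 0.45, limma adjusted p = 0.00605), a call that held in all 19 alternatives. Nes, or nestin, rose in the same comparison (1.71, SE 0.45, limma adjusted p = 0.0471), and lost its call in 12 of 19 alternatives (adjusted p up to 0.163). The neuronal filament genes Nefl, Nefm, Nefh and Ina differed by -0.58 to -0.02 in the 3 comparisons, and none passed. Synm lay wholly below Sham in both occlusion groups and did not pass. It differed from Sham by -0.665 (SE 0.21) in IR and -0.54 (SE 0.21) in IR+NMN.

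The summed markers of reactive astrocytes and of activated phagocytes lay above both other groups in every IR+NMN library, as Hspb1 did. The sums of other cell types overlapped or lay lower, although the highest mural cell sum, 250 TPM, was in IR+NMN 3. The part of cell types in the results was not tested. In bulk tissue, fewer cells of a type and less RNA per cell cannot be told apart. The labelled tissue had its markers: 7 neuronal genes summed to 3023 to 4072 TPM in IR+NMN, 3293 to 5600 TPM in IR and 4300 to 5608 TPM in Sham. The 8 reactive astrocyte markers in the table, of 9 listed, summed to 4397 to 4709 TPM in IR+NMN, 674 to 2668 TPM in IR and 412 to 817 TPM in Sham, with Gfap as the main part. The 7 markers of activated phagocytes summed to 98.6 to 995 TPM in IR+NMN, 12.7 to 37.5 TPM in IR and 11.6 to 14.3 TPM in Sham. Within IR+NMN and within IR, the order of the libraries in this sum was the same as in Hspb1, with 995, 98.6 and 546 TPM in IR+NMN and 37.5, 14.7 and 12.7 TPM in IR. Within IR the main part of the sum was Gpnmb, with 26.7, 9.71 and 9.67 TPM. Of the markers only Lgals3 had another order there, 2.15, 2.32 and 1.32 TPM. Cd68 and Lgals3 lay wholly below Sham in IR. In the reactive astrocyte sum the order was that of Hspb1 within IR. Within IR+NMN the sum followed Gfap and was highest in IR+NMN 2, whereas Serpina3n, Lcn2, Osmr, Cd44, Timp1 and Steap4 were lowest in IR+NMN 2, as Hspb1 was. Timp1, an inhibitor of matrix proteases, had 100.1, 20.8 and 66.1 TPM in IR+NMN, the order of Hspb1. Serpina3n, Lcn2, Osmr, Cd44 and Steap4 were instead highest in IR+NMN 3. Steap4 also lay below Sham in IR+NMN, at most 1.31 TPM against at least 1.58 TPM.

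The 9 oligodendrocyte markers summed to 3620 to 9142 TPM in IR+NMN, 4103 to 7737 TPM in IR and 5934 to 12932 TPM in Sham. Cryab was lowest in the Sham libraries. Within Sham and within IR, however, the order of the libraries in Cryab was that of this sum. Within IR+NMN both were lowest in IR+NMN 1, and the order of IR+NMN 2 and IR+NMN 3 differed. A part of oligodendrocytes in the Cryab levels was not tested. The 8 markers of resting astrocytes (1304 to 2919 TPM in IR+NMN, 2140 to 3207 TPM in IR, 1903 to 3170 TPM in Sham) and the 7 of microglia (211 to 267, 243 to 252 and 272 to 298 TPM in the same order) had sums in the occlusion groups that overlapped those of Sham or lay below them. Mural cell markers (7 genes) summed to 102 to 250 TPM in IR+NMN, 68.5 to 186 TPM in IR and 112 to 213 TPM in Sham, and fibroblast markers (5 genes) to 40.3 to 65.4, 32.5 to 83.5 and 44.7 to 234 TPM. Endothelial markers (6 of 7 listed) summed to 85.3 to 120.0 TPM in IR+NMN, 87.4 to 106 TPM in IR and 125 to 173 TPM in Sham. Red blood cell genes (5) summed to 823 to 1010 TPM in IR+NMN, 730 to 899 TPM in IR and 4075 to 9330 TPM in Sham, and choroid plexus genes (5) to 24.0 to 51.9, 20.8 to 40.0 and 78.6 to 116 TPM.
Muscle and lens also express these genes. The 10 skeletal muscle markers summed to 24.8 to 43.4 TPM in IR+NMN, 27.5 to 34.8 TPM in IR and 33.3 to 42.7 TPM in Sham, mostly from Acta1, which had 18.8 to 32.8 TPM in IR+NMN, 23.1 to 28.2 TPM in IR and 31.7, 25.2 and 35.6 TPM in Sham. Of the other 9, Myh2 reached 4.76 TPM, Actn3 3.47 TPM and Myh1 3.04 TPM, while Mb and Myh4 were at most 0.402 and 0.387 TPM in any library. Tnni2 had 2.01, 0.405 and 1.19 TPM in IR+NMN, and at most 0.143 TPM in IR and 0.180 TPM in Sham. Of 8 lens markers 5 were in the table, with Mip at 0 in all 9 libraries. Their sum was 27.5 to 74.4 TPM in IR+NMN, 52.7 to 107 TPM in IR and 4.80 to 14.9 TPM in Sham. In the occlusion groups it was mostly that of Grifin, a galectin-related gene. Grifin had 67.6, 33.1 and 19.7 TPM in IR+NMN and 42.3, 67.0 and 98.3 TPM in IR. In Sham it had 1.38, 2.42 and 4.18 TPM, where Cryba1 had 8.08, 0 and 5.02 TPM.

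**Figure D5:**
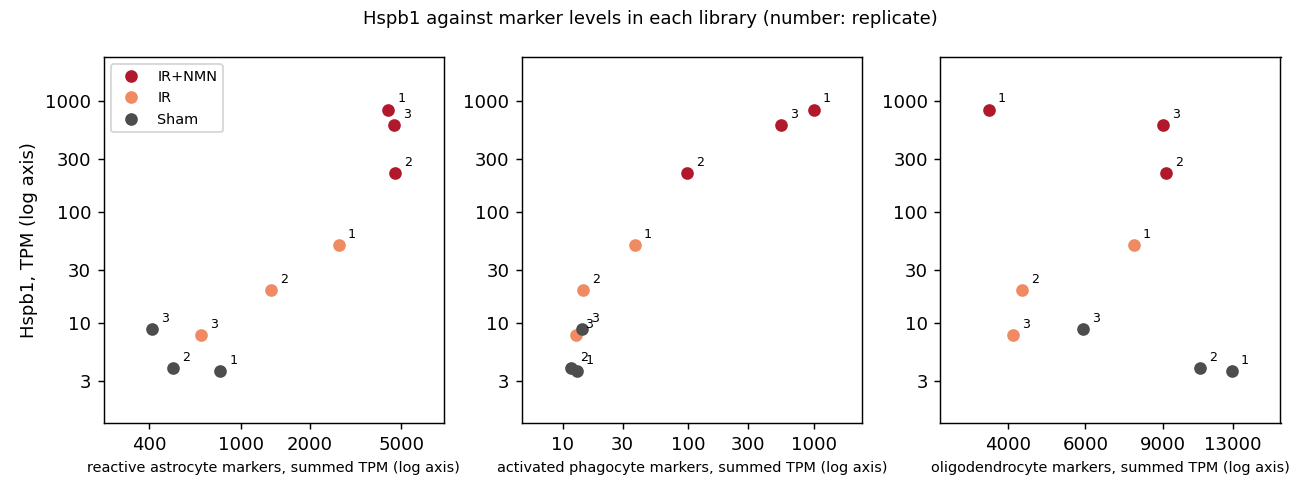
Hspb1 in TPM against the summed TPM of reactive astrocyte, activated phagocyte and oligodendrocyte markers, on log axes, 1 point per library with its replicate number and group colour. The IR+NMN libraries have the highest reactive astrocyte sums, 4397 to 4709 TPM, and phagocyte sums, 98.6 to 995 TPM, while their oligodendrocyte sums run from 3620 to 9142 TPM and include the lowest of all 9 libraries.

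The 4 genes differed in how alike their patterns were. Across the 9 libraries, Pearson's r of log2(TPM + 1) was 0.95 between Hspb1 and Hspb8 and 0.90 between Cryab and Bag3, and 0.77 between Hspb1 and Cryab and 0.78 between Hspb8 and Bag3, the lowest of the 6 pairs. These values are descriptions over libraries that share 3 groups, so that differences between the groups make up much of them. Hspb1 and Hspb8 were highest in IR+NMN 1 or IR+NMN 3 and lowest in Sham 1, while Cryab and Bag3 were lowest in Sham 3 and near their highest in IR 1.

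Among 8223 tested genes with a mean of at least 5 TPM, the 5 most like Hspb1 by r over the 9 libraries were Ctsz (0.99), Myl12a (0.99), Parp3 (0.99), Cnn3 (0.99) and Psmb8 (0.98). Ctsz, a lysosomal protease, averaged 95.5 TPM in IR+NMN, 30.7 TPM in IR and 22.0 TPM in Sham, and Psmb8, a subunit of the immunoproteasome, 39.8, 11.8 and 8.72 TPM in the same order. The 5 most like Hspb8 were Upp1 (0.98), Ret (0.97), Mt1 (0.97), Tgm2 (0.97) and Gucd1 (0.97). Mt1, a metallothionein, averaged 325 TPM in IR+NMN, 152 TPM in IR and 74.2 TPM in Sham, and the receptor tyrosine kinase gene Ret 10.2, 4.31 and 1.53 TPM. The 5 most like Cryab were Hpgd (0.97), Gpd1 (0.97), Atf5 (0.97), Pex11a (0.97) and Nudt5 (0.97). Gpd1, a glycerol phosphate dehydrogenase, averaged 215 TPM in IR+NMN, 119.6 TPM in IR and 45.6 TPM in Sham, and the stress-regulated transcription factor Atf5 119.9, 108 and 51.6 TPM. The 5 most like Bag3 were Gadd45a (0.98), A2m (0.97), Mcl1 (0.97), Rassf4 (0.96) and Frmd8 (0.96). The DNA damage-inducible gene Gadd45a averaged 45.9 TPM in IR+NMN, 19.5 TPM in IR and 12.1 TPM in Sham, and the anti-apoptotic gene Mcl1 43.0, 31.1 and 28.5 TPM.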

How the data were processed

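RNA sequencing of 9 rat brain libraries was deposited by the authors as 1 table of TPM, in which each library summed to 1000000. The unit is read from these sums, since the table does not name it. Per the labels' protocols Smart-Seq2 was used for amplification, and per the submitters' processing notes STAR, Cufflinks and the human build hg38 were used, although the samples are from rat. The sources used here give neither versions nor annotation. TPM keeps no read depth, so the depth is unknown and no counting interval was given. A symbol stood in 27683 of 131003 rows, which held 72.7% to 78.7% of the TPM, and rows of a symbol were summed to 12609 genes.

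Genes that reached 1 TPM in 3 or more libraries were tested on log2(TPM + 1). The test was that of limma 3.58.1 under R 4.3.3 (with the package data.table in version 1.17.8; intensity trend, robust moderation, 1 mean per group, 6 residual degrees of freedom), two-sided, with Benjamini-Hochberg adjustment over 10180 genes per comparison and a threshold of 0.05. The fit was tested on simulated data. Members, lists and alternatives were chosen with earlier results of these data known. Named were the 4 members, the tested small heat shock protein and BAG genes, genes of the other lists past the threshold or, where a list had none, its 3 with the highest mean, and the 5 genes most like each member by Pearson's r. Genes outside this rule (Flna, Hspa1b, Map1lc3b, Hdac6, Stub1, Hsf1, Hsf2, Synm, neuronal filaments, untested relatives, Grifin and other markers) were named after their values were seen. Promoters are those of RefSeq, build GRCr8. Whether equal replicate numbers pair the libraries was not decided. Deviations from the group means correlated at -0.57 to 0.49, but they sum to 0 within each group of 3 and so cannot exclude pairing.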

Additional observations from a re-analysis of the deposited data

How the results depend on the processing

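The differences of the 4 genes kept their direction in all 228 combinations of 12 values and 19 alternatives, and moved by less than the spread between libraries in 222. The other 6 were Hspb8 in IR versus Sham with quantile normalization (1.18), Hspb1 in IR+NMN versus IR without IR 1 and IR+NMN 2 (5.72), and, with the highest row per symbol, Cryab and Bag3 in IR versus Sham (2.45 and 0.70) and in IR+NMN versus Sham (2.96 and 1.35). The cause was not tested.

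Counts past the threshold were less stable. Genes called in IR versus Sham numbered 651 (116 higher, 535 lower), and the split was 290 and 292 with quantile normalization and 276 and 285 with median-of-ratios scaling, which remove the shift of all genes. The replicate block, which takes libraries of equal number as paired, gave 100 in IR versus Sham, 33 in IR+NMN versus IR and 499 in IR+NMN versus Sham. Without IR 1 and IR+NMN 2 the counts were 2514, 533 and 2989. Leaving out 1 library gave 74 to 1138, 0 to 496 and 276 to 2168. In IR+NMN versus IR, 240 genes were called, 7 with quantile normalization, 73 with median-of-ratios scaling and 2 when the third group was left out of the model. In IR+NMN versus Sham 1053 were called, and 620 when IR was left out. Its split of 429 higher and 624 lower became 717 and 692 with quantile normalization and 686 and 595 with median-of-ratios scaling.

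Of the 4 genes, 2 passed in IR versus Sham, 1 with the highest row per symbol, 0 with the replicate block and 0 to 2 without 1 library. In IR+NMN versus IR, 2 passed, 0 with quantile normalization, the groups compared alone or the replicate block, 1 with median-of-ratios scaling and 0 to 2 without 1 library. In IR+NMN versus Sham, 3 to 4 passed in every alternative.

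Of the Bag3 partners, 0 passed in any comparison. With quantile normalization, median-of-ratios scaling and the highest row, 1, 2 and 1 passed in IR versus Sham and 3, 3 and 1 in IR+NMN versus Sham. In both IR+NMN comparisons 1 passed without IR 1 and IR+NMN 2, and 0 to 1 without 1 library. Of the chaperones, 2 passed in IR versus Sham and 4 in IR+NMN versus Sham with the replicate block, 5 in IR+NMN versus Sham with IR left out, and 1 in IR+NMN versus IR without IR 1 and IR+NMN 2. Without 1 library, 1 to 8 passed in IR versus Sham and 3 to 8 in IR+NMN versus Sham. Of the intermediate filaments, 0 passed in IR+NMN versus IR with quantile normalization, median-of-ratios scaling, the groups compared alone or the block, and 1 in IR+NMN versus Sham with the groups compared alone or the block. Without IR 1 and IR+NMN 2, 2 fell in IR versus Sham and 3 rose in IR+NMN versus IR. Without 1 library, 0 to 1, 0 to 3 and 1 to 4 passed. Of the other BAG genes, 1 fell in IR versus Sham without IR 1 and IR+NMN 2. Hspd1 turned to -0.57 in IR+NMN versus Sham with the highest row per symbol, which gave 6 chaperones higher and 1 lower in each comparison with Sham. Other alternatives tried were a pseudocount of 0.1 TPM, no filter on low values, a filter at 5 TPM, and no trend or robust moderation.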
